A study of Rattus norvegicus with 18 samples.

Results

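The 45 genes described here carry out the cell cycle and DNA replication. They were taken as a fixed list of symbols, with 1 probe per gene (the one of highest mean signal). A probe was present for 37 of them, and 34 gave a signal above background on at least 1 array. The array held 21563 gene symbols in all, of which 10797 passed the same limit. The 34 comprise 15 genes of mitosis and its checkpoint, 10 of replication licensing and the fork, 5 of the G1 cyclins, kinases and E2F, 2 CDK inhibitors and 2 of nucleotide synthesis. No probe carried the symbols Top2a, Ccnb1, Birc5, Aurka, Ccnd3, Cdk2, Rrm1 or Tk1. The probes of Ccnd2, Cdk6 and Cdkn1a were not above background on any of the 18 arrays. Their signals lay between 59.8 and 82.0, 70.9 and 109.7, and 68.4 and 95.9.

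The cells were primary cortical neurons of E18 rats. On day 1 of culture they received a lentivirus for 6 hours, which carried either shRNA against CHD5, a chromatin remodeling ATPase of the brain, or the control shRNA (a scrambled sequence in the same pLKO.1 vector). The labels do not give the CHD5 shRNA sequence. RNA was collected on days 5, 9 and 12, with 3 arrays (a, b and c) for each lentivirus and day. Both groups therefore share the infection and the medium change. Of 10 neuronal markers 7 had a probe, and all 7 gave a signal above background. Markers of astrocytes and progenitors were also present. The array has no probe for Chd5, so the depletion was not checked here. In RNA of a whole culture, fewer cells of a type and less RNA per cell cannot be told apart.

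A cell that divides passes from G1, in which D-type cyclins with Cdk4 and Cdk6 release E2F, to S phase, opened by cyclin E with Cdk2. The Mcm2 to Mcm7 helicase, Pcna and the ligase Lig1 then copy the DNA, and Tyms and Rrm2 supply its building blocks. Cyclin A, cyclin B with Cdk1, Plk1, the Aurora kinases and the spindle checkpoint (Bub1, Bub1b, Mad2l1) carry the cell through mitosis. Neurons have left this cycle, so in a cortical culture such transcripts are usually thought of as coming from progenitors and glia. Cdkn1b (p27) and Cdkn1c (p57) hold cyclin-dependent kinases in check as cells leave the cycle.

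The probes of 5 members that are followed array by array in the results are printed 5′ to 3′, since each value is the hybridisation to this 50-base stretch. Positions are those of the deposited annotation, whose genome build is not given in the sources used here. The Ccne2 probe lies on the + strand at chr5:23514176-23514225, that of Cdk1 on the + strand at chr20:20030682-20030731, that of Cdkn1b on the + strand at chr4:171846062-171846111, that of Cdkn1c on the - strand at chr1:203836866-203836915, and that of Mcm4 on the + strand at chr11:87181366-87181415.
Ccne2: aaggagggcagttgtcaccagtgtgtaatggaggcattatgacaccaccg
Cdk1: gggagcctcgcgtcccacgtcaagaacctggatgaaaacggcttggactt
Cdkn1b: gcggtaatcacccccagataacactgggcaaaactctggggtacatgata
Cdkn1c: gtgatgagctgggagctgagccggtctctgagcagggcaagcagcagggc
Mcm4: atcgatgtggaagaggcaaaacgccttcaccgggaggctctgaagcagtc

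Many of the members are textbook targets of shared regulators, and their promoters were searched for the matching letters in both directions. RefSeq (GRCr8) windows of 300 bases, from 250 before to 50 after the annotated start, were matched by symbol for 33 of the 45 genes. Not in the table were Ccna2, Aurkb, Ube2c, Racgap1, Ccnd1, Ccnd2, Ccne2, Cdk6, E2f1, Cdkn1c, Mcm4 and Rrm2. CCAAT, the box of NF-Y, occurred in 20 of the 33 windows (60.6%) and in 37.5% of all 33469 windows of the table. TTTGAA or TTTAAA, the cell cycle homology region through which mitotic genes are repressed in resting cells, occurred in 18 windows (54.5%) against 28.25% of all. An E2F site (TTTCGCGC, TTTGGCGC, TTTCCCGC or TTGGCGGG) occurred in 8 windows (24.2%) against 2.52% of all, and 7 of these 8 held TTTCGCGC. The 8 genes were Cdk1, Lig1, Mcm2, Mcm3, Mcm5, Mcm6, Mcm7 and Tyms. These are matches of letters and not measured binding. The windows of 4 genes are shown, with matches in capitals: Ccnb2 at chr8:79981609-79981908 (- strand), with NF-Y boxes and homology regions, Cdk1 at chr20:19265043-19265342 (+ strand), with all 3 kinds of match, Mcm2 at chr4:122918045-122918344 (- strand), whose overlapping E2F matches form 1 run, and Cdkn1b at chr4:169491254-169491553 (+ strand).
Ccnb2: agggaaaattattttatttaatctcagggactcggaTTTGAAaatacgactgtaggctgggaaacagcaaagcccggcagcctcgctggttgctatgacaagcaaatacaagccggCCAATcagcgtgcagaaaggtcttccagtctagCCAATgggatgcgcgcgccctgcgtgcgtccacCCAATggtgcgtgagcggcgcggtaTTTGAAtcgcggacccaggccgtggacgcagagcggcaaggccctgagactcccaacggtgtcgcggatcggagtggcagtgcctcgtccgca
Cdk1: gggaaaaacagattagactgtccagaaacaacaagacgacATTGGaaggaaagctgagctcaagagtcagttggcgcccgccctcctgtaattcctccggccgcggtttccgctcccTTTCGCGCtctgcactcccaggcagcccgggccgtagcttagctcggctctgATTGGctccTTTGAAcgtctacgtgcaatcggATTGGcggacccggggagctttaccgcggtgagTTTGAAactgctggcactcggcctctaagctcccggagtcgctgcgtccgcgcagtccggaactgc
Mcm2: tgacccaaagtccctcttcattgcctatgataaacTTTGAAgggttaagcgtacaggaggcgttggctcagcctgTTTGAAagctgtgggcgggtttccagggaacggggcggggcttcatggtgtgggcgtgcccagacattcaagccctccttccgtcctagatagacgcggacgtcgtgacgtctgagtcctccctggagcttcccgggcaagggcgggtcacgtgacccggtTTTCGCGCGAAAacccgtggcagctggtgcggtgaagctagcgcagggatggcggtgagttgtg
Cdkn1b: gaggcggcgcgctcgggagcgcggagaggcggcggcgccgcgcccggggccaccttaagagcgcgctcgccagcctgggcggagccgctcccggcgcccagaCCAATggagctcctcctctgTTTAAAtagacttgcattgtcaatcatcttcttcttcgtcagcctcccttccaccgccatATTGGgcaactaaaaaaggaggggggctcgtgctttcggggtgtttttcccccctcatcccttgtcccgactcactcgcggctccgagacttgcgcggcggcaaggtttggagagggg

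**Figure D1:**
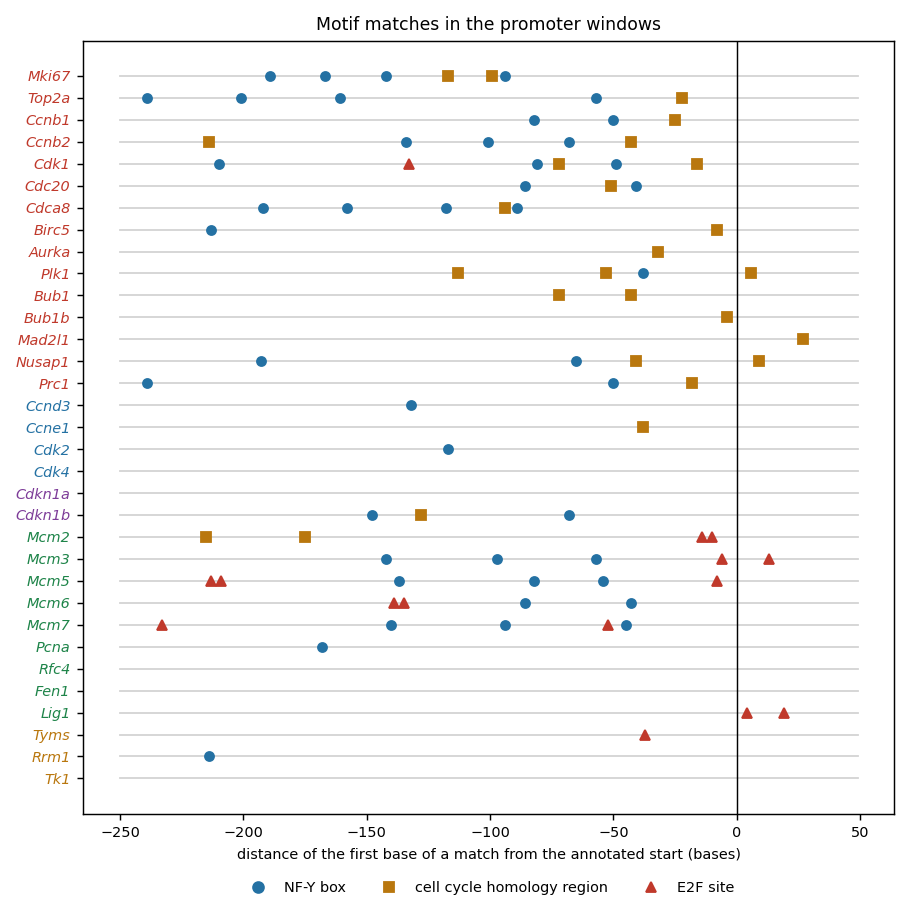
Matches of the searched letters in the promoter windows of 33 genes, plotted by the distance in bases of the first base of a match from the annotated start (vertical line). Circles are NF-Y boxes, squares cell cycle homology regions and triangles E2F sites; gene names are coloured by role as in the plot of differences by day. E2F matches lie in the windows of Mcm2, Mcm3, Mcm5, Mcm6 and Mcm7, and no match was found in those of Cdk4, Cdkn1a, Rfc4, Fen1 and Tk1.

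Signals are given as log2 values scaled to the same mean and spread on every array, and a gene was called when its limma adjusted p over all 11079 kept probes was under 0.05. A level is not compared between probes. The arrays had mean signals between 400.2 and 789 and 8360 to 9931 detected probes, except the day 9 control array b, with 134.8 and 7047. Its mean signal was 2.07 times its background, against 5.82 to 9.65 times on the other arrays. The background of an array was inferred as the median signal of its probes with a mid-range detection p, and was not measured on control beads. All comparisons share 1 estimate of the spread. The median SD within a group was 0.144 over the members with it and 0.116 without it. Counts of called genes are therefore given with and without this array.

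At day 5 nearly the whole module was lower in neurons that had received CHD5 shRNA, by small amounts that did not pass the limit over all arrays. Of the 34 members, 32 had a lower mean after CHD5 shRNA, with a median log2 difference of -0.25, while the median of all kept probes was 0.01. Among the 15 mitotic genes all 15 were lower, with a median of -0.39, and all 10 replication genes were lower, with a median of -0.15 and a range of -0.39 to -0.03. The 2 members higher were Tyms (0.14) and E2f1 (0.06). The groups did not overlap for 15 members, all lower, and for 5.8% of all kept probes in that direction. None of the 34 was called, beside 0.126% of all kept probes called lower. At an unadjusted p under 0.05, limma's count was 14 members, beside 5.66% of all kept probes. When the day 9 control array b was left out, 10 members were called lower, beside 1.04% of all probes kept then, and none was called higher. They were Ccna2, Ccnb2, Cdk1, Cdc20, Bub1b, Ube2c, Racgap1, Ccne2, Mcm2 and Rrm2. With the 6 day 5 arrays alone 0 members were called.

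**Figure D2:**
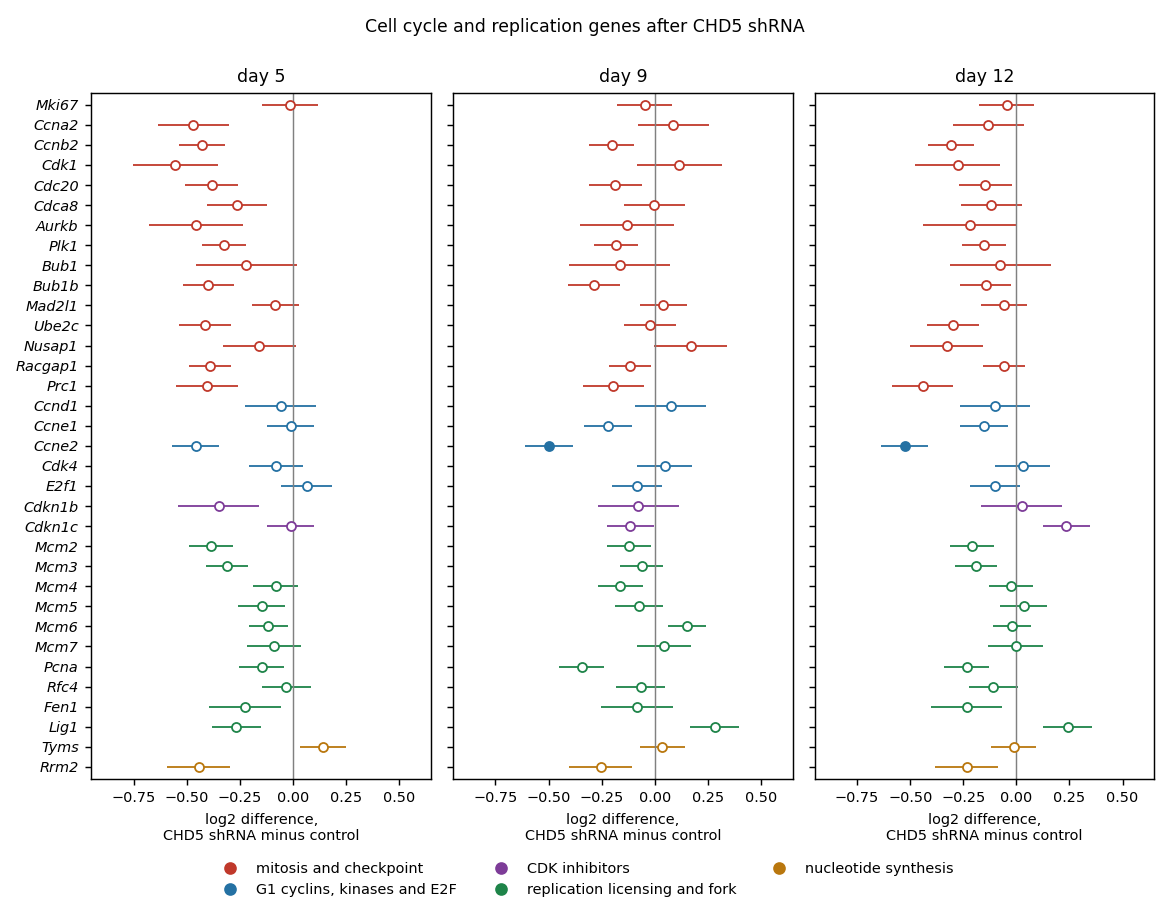
Log2 difference between CHD5 shRNA and control for the 34 members at days 5, 9 and 12 (points), with the limma standard error as bars and n = 3 arrays per group; colours are the roles, and filled points were called. Points lie left of 0 for 32 members at day 5, 24 at day 9 and 29 at day 12, and the filled points are Ccne2 at days 9 and 12.

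Cdk1, the kinase that drives entry into mitosis, had the largest difference of the members at day 5. Its log2 signals were 10.60, 10.49 and 10.25 on the day 5 control arrays and 9.96, 9.93 and 9.79 after CHD5 shRNA. All 3 control values lay above all 3 shRNA values, and the difference was -0.55 ± 0.20 (SE, n = 3 arrays per group), with a limma adjusted p of 0.523 and an exact permutation p of 0.1, the smallest that 3 against 3 arrays allow. The standard error was 0.09 and the limma adjusted p 0.00188 when the day 9 control array b was left out. On that array itself Cdk1 gave 9.46, against 10.52 and 10.59 on the other day 9 control arrays. After CHD5 shRNA the day 9 signals were 10.32, 10.39 and 10.20. At day 12 the controls gave 10.11, 10.07 and 10.22, and the CHD5 shRNA arrays gave 9.87, 9.86 and 9.85. These groups were apart again at a smaller distance, -0.28 ± 0.20, with a limma adjusted p of 0.593, and 0.0417 without the day 9 control array b.

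The cyclin partners of Cdk1 also had separate groups at day 5. Ccna2, the S and G2 phase cyclin, had a log2 difference of -0.47 ± 0.17 (limma adjusted p 0.517, and 0.00264 without the day 9 control array b). Its control signals of 9.30, 9.26 and 9.16 stood above shRNA signals of 8.83, 8.86 and 8.63. Ccnb2, a mitotic cyclin, gave 10.42, 10.39 and 10.40 in controls and 10.11, 9.86 and 9.95 after CHD5 shRNA. Its difference was -0.43 ± 0.11, with a limma adjusted p of 0.15, and 0.0294 without that array. Racgap1, which organises the cleavage furrow, differed by -0.39, Ube2c and Cdc20, which serve the anaphase-promoting complex, by -0.42 and -0.38, and the checkpoint kinase Bub1b by -0.40. Aurkb (-0.46), Prc1 (-0.41) and Plk1 (-0.33) were not called with or without that array. Mki67, the usual proliferation marker, differed by -0.01 ± 0.13 and was detected on all 18 arrays. Its raw signals of 85.1 to 158 lay close to the array backgrounds of 65.2 to 81.8. Those of Racgap1 (84.8 to 196.5) and Plk1 (90.0 to 217.5) lay nearly as close. The lowest value of each of the 3 genes was on the day 9 control array b. Why Mki67 did not differ was not tested.

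**Figure D3:**
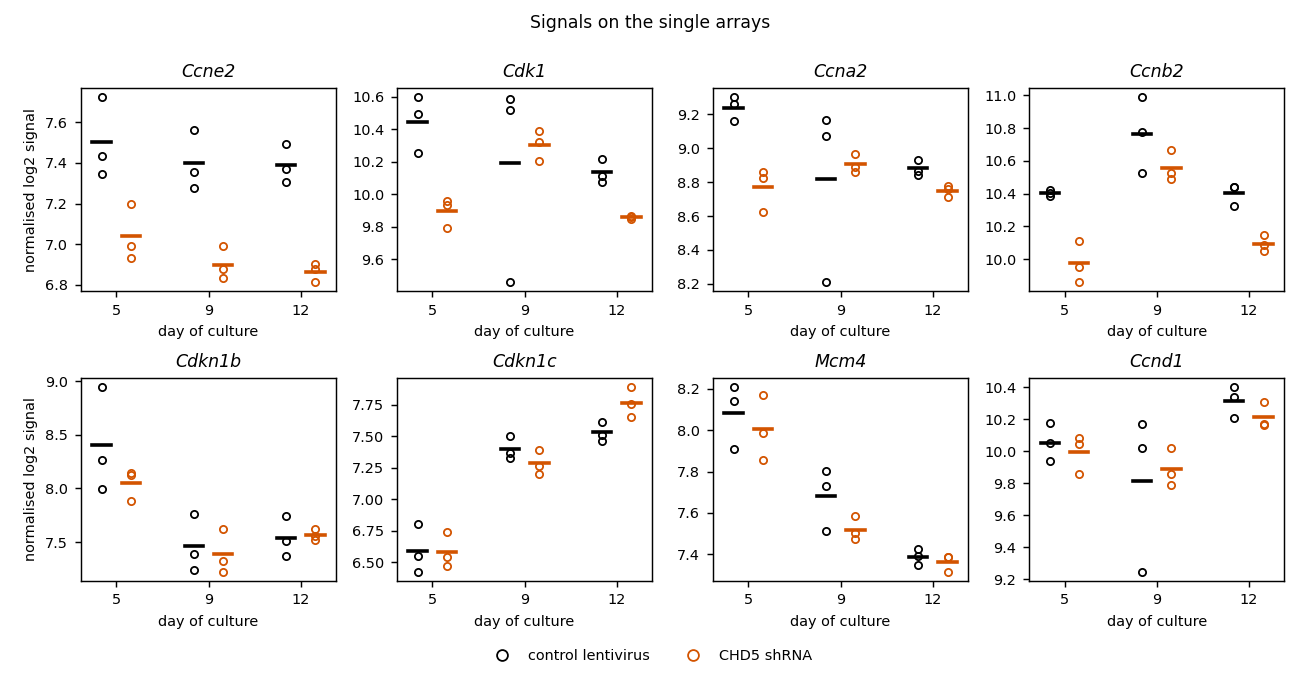
Normalised log2 signal of 8 members on each of the 18 arrays (open circles) with group means (bars), by day of culture, in control (black) and CHD5 shRNA (orange). Each day's 3 Ccne2 values after CHD5 shRNA lie below the 3 controls, control Cdkn1b and Mcm4 are lower and Cdkn1c higher at day 12 than at day 5, and the low control value at day 9 in Cdk1, Ccna2 and Ccnd1 is array b.

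Ccne2, cyclin E2, which opens S phase with Cdk2, was the only member called after CHD5 shRNA with all 18 arrays. On day 5 its log2 signals were 7.72, 7.44 and 7.34 in controls and 6.99, 7.20 and 6.93 after CHD5 shRNA. On day 9 they were 7.56, 7.28 and 7.36 against 6.88, 6.99 and 6.83. On day 12 they were 7.49, 7.30 and 7.37 against 6.90, 6.88 and 6.81. At each day every shRNA array lay below every control array. The log2 differences were -0.46 ± 0.11, -0.50 ± 0.11 and -0.53 ± 0.11 (SE), or 1.37-, 1.41- and 1.44-fold lower, with limma adjusted p of 0.134, 0.0148 and 0.0083 at days 5, 9 and 12. Ccne2 was detected on 17 of the 18 arrays. The day 9 call was lost with only the 6 arrays of that day (limma adjusted p 0.307), without its shRNA array a (0.0629) or c (0.101) and without a detection filter (0.192), and Ccne2 did not pass the criteria of the study's methods at that day. The day 12 call was lost without its control array a (limma adjusted p 0.0575) and without a detection filter (0.115). The related Ccne1 was near background and detected on 10 arrays. It was detected on all 3 control arrays and on no shRNA array at day 12, where the control was at least 1.07-fold higher (limma adjusted p 0.618).

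At day 9 the size of the difference depended on array b. Of the 34 members 24 were lower with it, with a median log2 difference of -0.08, against -0.02 for all kept probes. Without it 28 members were lower, 14 of the 15 mitotic genes among them, with a median of -0.17. The groups did not overlap for 5 members lower, beside 8.16% of all probes, and for 1 member higher, beside 12.4%. One member of 34 was called lower (Ccne2), beside 2.25% of all kept probes, and none higher, beside 3.65%. With the day 9 control array b left out, 6 members were called lower, beside 6.67% of the probes kept then. They were Cdc20, Bub1b, Prc1, Ccne2, Fen1 and Rrm2. Pcna, the clamp of the replication fork, came closest with all arrays. Its signals were 12.62, 12.90 and 12.79 in controls and 12.41, 12.53 and 12.34 after CHD5 shRNA at day 9, a difference of -0.34 ± 0.11 with a limma adjusted p of 0.0653. The highest, 12.90, was that of array b, whose raw Pcna signal was 868.8 against 8738 and 6316 on the other day 9 controls. Pcna was not among the members called without that array.

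At day 12 most of the module was lower. Of the 34 members 29 were lower after CHD5 shRNA, all 15 mitotic genes among them, with a median of -0.12 over the members and 0.01 over all kept probes. The groups did not overlap for 17 members lower, beside 18.3% of all probes, and for 2 members higher, beside 19.9%. Ccne2 was the 1 member called lower, beside 3.24% of all kept probes, and none was called higher, beside 2.23%. The fit without the day 9 control array b called 6 members lower, beside 7.07% of the probes kept then. The median was then -0.13, with 29 members lower. Those called were Ccne2, Prc1 (-0.45), Nusap1 (-0.34), Ccnb2 (-0.31), Ube2c (-0.31) and Cdk1 (-0.28). Prc1 and Nusap1 bundle and anchor spindle microtubules.

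**Figure D4:**
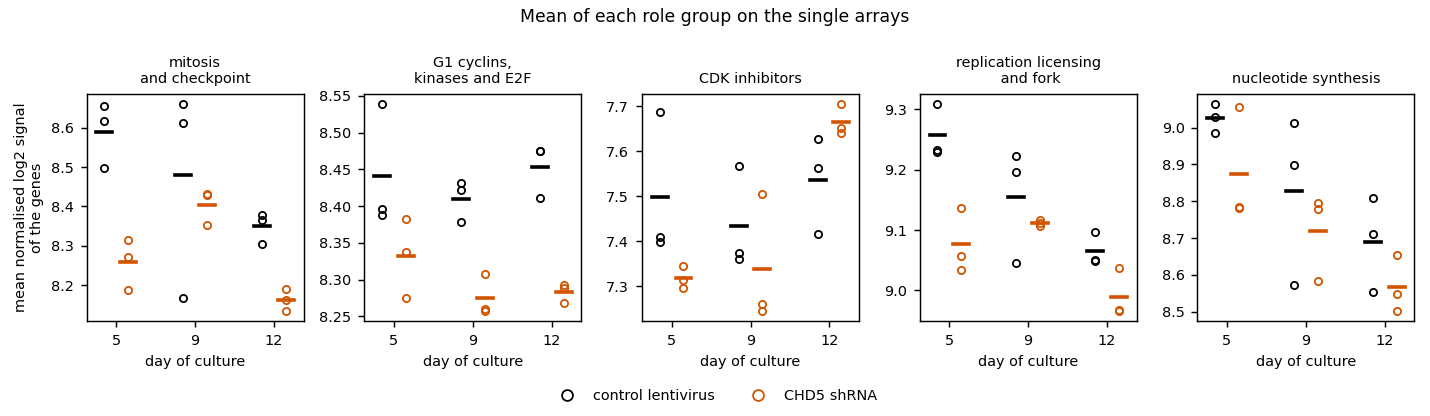
Mean normalised log2 signal of the genes of each role on every array (open circles) with group means (bars), by day of culture. In the mitotic genes the control arrays lie between 8.50 and 8.65 and the CHD5 shRNA arrays between 8.19 and 8.31 at day 5, and between 8.31 and 8.38 against 8.14 and 8.19 at day 12; at day 9 the lowest control array, 8.17, is array b.

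Whether the difference changed with time was tested directly. No member was called for a change of the CHD5 shRNA difference between day 5 and day 12, beside 0.153% of all kept probes called in either direction. At an unadjusted p under 0.05 limma counted 2 members, beside 6.75% of all kept probes, a share near that of the members. The mitotic differences were smaller at day 12 than at day 5 in 12 of 15 genes, and the median change over all 15 was 0.15. Lig1, which joins the fragments of the lagging strand, had the largest change. The control arrays of day 5 gave 8.90, 8.64 and 8.79 and those of day 12 gave 8.49, 8.34 and 8.57. The CHD5 shRNA arrays gave 8.69, 8.46 and 8.38 and then 8.60, 8.84 and 8.69. It was thus lower after CHD5 shRNA at day 5 (-0.27) and higher at day 12 (0.24), a change of 0.51 ± 0.16 with a limma adjusted p of 0.295. It was the 1 member called without the day 9 control array b, beside 2.41% of the probes kept then, a share near that of the members.

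The largest log2 differences of members were those between days of culture. In control neurons 6 members were lower at day 12 than at day 5, beside 12.5% of all kept probes called lower, and 1 was higher, beside 11.1%. Those lower were Cdkn1b, Mcm4, Bub1, Bub1b, Mad2l1 and Mcm3, and the one higher was Cdkn1c. The median of the 34 was -0.18 and that of all kept probes -0.02. After CHD5 shRNA 3 members were called lower between the same days (Mcm4, Tyms and Mad2l1), beside 8.56%, and 1 higher (Cdkn1c), beside 8.46%, with a median of -0.05 over the members. In the fit without the day 9 control array b the counts were 15 lower, beside 21.4%, and 3 higher, beside 17.6%, in controls. After CHD5 shRNA they were then 8 lower, beside 18.1%, and 2 higher, beside 14.1%. With all arrays the counts of members lower lie near the shares of all probes, and those of members higher lie under them.

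The CDK inhibitors Cdkn1b and Cdkn1c moved in opposite directions. Cdkn1b gave 8.95, 8.27 and 7.99 on the day 5 control arrays, then 7.77, 7.24 and 7.39, then 7.74, 7.51 and 7.37 on those of day 12. All day 12 values lay below all day 5 values, with a log2 difference of -0.86 ± 0.19, a 1.82-fold fall, and a limma adjusted p of 0.00265. After CHD5 shRNA it gave 8.15, 8.12 and 7.88, then 7.22, 7.32 and 7.62, then 7.55, 7.52 and 7.62. The difference between days 5 and 12 was -0.49 there, with a limma adjusted p of 0.0925, and 0.0362 without the day 9 control array b. The 2 courses were not shown to differ (0.38 ± 0.27, limma adjusted p 0.999).

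Cdkn1c was at the edge of detection at day 5, with 1 of 3 arrays detected in each group, and was detected on all arrays later. In controls the day 5 arrays gave 6.43, 6.55 and 6.80, those of day 9 gave 7.37, 7.50 and 7.33, and those of day 12 gave 7.51, 7.62 and 7.46. The CHD5 shRNA arrays gave 6.54, 6.47 and 6.74, then 7.26, 7.20 and 7.39, then 7.75, 7.89 and 7.65. The rise from day 5 to day 12 was 0.94 ± 0.11 in controls (1.91-fold, limma adjusted p 4.51e-06) and 1.18 ± 0.11 after CHD5 shRNA (2.27-fold, limma adjusted p 5.11e-07). At day 12 the shRNA arrays lay above the control arrays by 0.24, with a limma adjusted p of 0.307.

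Mcm4, a subunit of the replicative helicase, fell in both cultures. Control arrays gave 8.21, 8.14 and 7.91, then 7.80, 7.73 and 7.51, then 7.43, 7.35 and 7.39 over the 3 days. After CHD5 shRNA it gave 7.99, 8.17 and 7.85, then 7.47, 7.50 and 7.58, then 7.39, 7.39 and 7.32. The falls from day 5 to day 12 were 0.70, hence 1.62-fold, and 0.64, hence 1.56-fold, with limma adjusted p of 7.44e-05 and 0.000297. Of its fellow subunits Mcm3 fell by 0.36 in controls (7.70, 7.57 and 7.71 to 7.27, 7.43 and 7.21; limma adjusted p 0.0139). Mcm2, Mcm5 and Mcm6 differed by -0.19, -0.20 and -0.15 and Mcm7 by 0.17, and none of these was called. The second probe of Mcm5 was not above background on any day 12 array, and its day 5 controls were at least 1.1-fold higher (limma adjusted p 0.431).

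The spindle checkpoint genes fell in controls. Bub1 gave 8.16, 7.71 and 7.30 at day 5 and 7.26, 6.75 and 7.11 at day 12, a difference of -0.68 ± 0.24 with a limma adjusted p of 0.0443, a call held in 12 of 28 alternatives. Bub1b gave 8.19, 7.94 and 7.81 and then 7.61, 7.46 and 7.51, a difference of -0.46 ± 0.12 with a limma adjusted p of 0.0107. Mad2l1 gave 7.49, 7.36 and 7.29 and then 7.01, 6.97 and 7.05, a difference of -0.37 ± 0.11 with a limma adjusted p of 0.0199, held in 21 of 28. The groups did not overlap for any of these 3 genes. The share of all kept probes with groups apart was not counted for these days, so this is a description only. After CHD5 shRNA Mad2l1 fell by 0.34 (limma adjusted p 0.0376), and Bub1 and Bub1b differed by -0.54 and -0.20 without a call.

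Tyms, which makes thymidylate, gave 7.93, 8.12 and 7.86 at day 5 after CHD5 shRNA and 7.55, 7.58 and 7.47 at day 12, a fall of 0.44 with a limma adjusted p of 0.00771. In controls its difference was -0.28, with a limma adjusted p of 0.0637. Ccnd1, the D-type cyclin with a kept probe, gave 10.18, 10.05 and 9.94 at day 5 and 10.21, 10.34 and 10.40 at day 12 in controls, and 10.08, 9.86 and 10.05 and then 10.16, 10.17 and 10.31 after CHD5 shRNA. Its differences of 0.26 and 0.22 were not called. Cdk4 differed by -0.08 and 0.03 and E2f1 by -0.14 and -0.31, also without a call. Pcna gave 12.69, 12.77 and 12.37 at day 5 and 12.50, 12.51 and 12.48 at day 12 in controls, a difference of -0.11 that was not called.

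**Figure D5:**
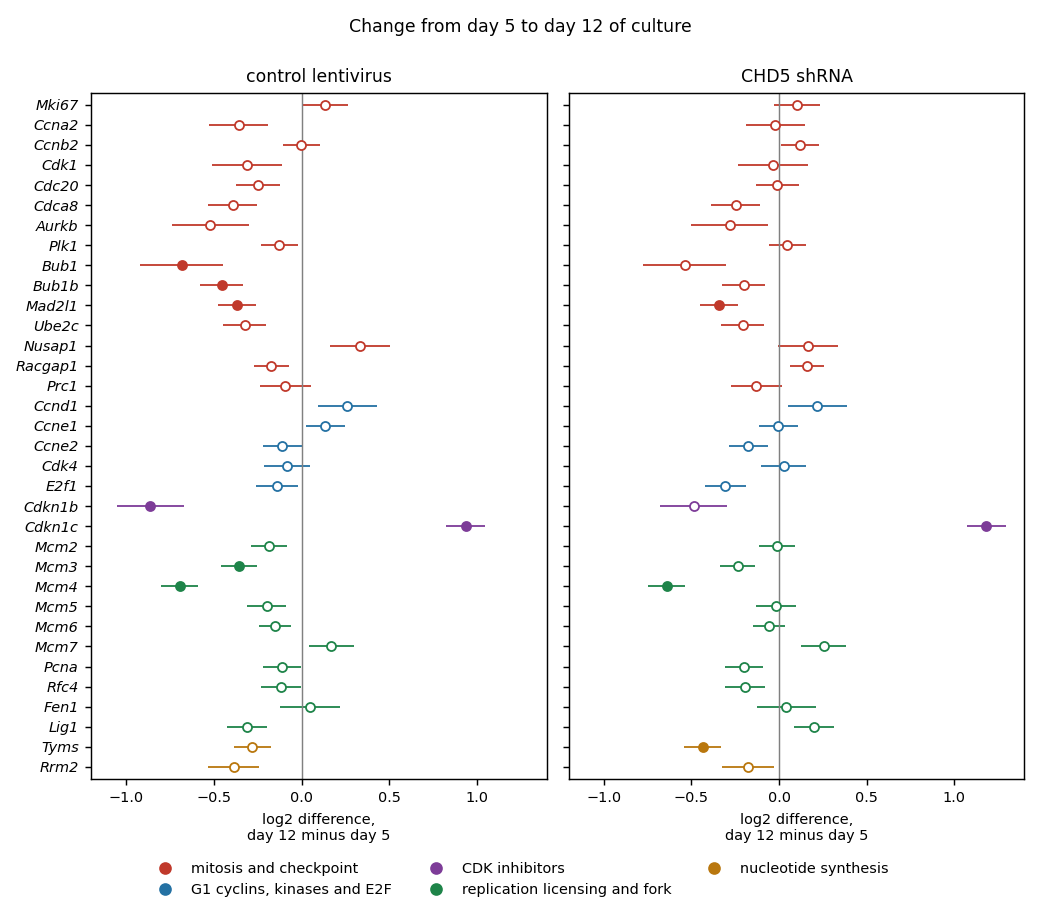
Log2 difference between day 12 and day 5 for the 34 members in control (left) and CHD5 shRNA (right), with the limma standard error as bars and n = 3 arrays per group; colours are the roles, and filled points were called. Cdkn1c is the filled point to the right in both panels, at 0.94 and 1.18, and Mcm4 lies at -0.70 and -0.64.

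The intermediate day divided these changes. In controls 3 members were lower at day 9 than at day 5, beside 12.8% of all kept probes (Cdkn1b, Mcm4 and Lig1), and 2 were higher, beside 9.18% (Cdkn1c and Ccnb2). After CHD5 shRNA 2 were lower, beside 4.72% (Cdkn1b and Mcm4), and 2 higher, beside 4.61% (Cdkn1c and Ccnb2). Between days 9 and 12 none was called in controls, beside 4.16% called in either direction, with a smallest limma adjusted p of 0.0703 and 7 members at an unadjusted p under 0.05, near the 20.1% of all kept probes. After CHD5 shRNA Ccnb2 was lower, beside 0.415%, and Cdkn1c higher, beside 0.957%. Ccnb2 was thus at its highest at day 9. It rose by 0.36 in controls and 0.58 after CHD5 shRNA (limma adjusted p 0.0236 and 0.00212), and between days 9 and 12 it fell by 0.46 after CHD5 shRNA (limma adjusted p 0.0364) and differed by -0.36 in controls (0.0703). The call of Lig1 was lost without the day 9 control array b (limma adjusted p 0.125).

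The totals between adjacent days were higher when that array was left out. From day 5 to day 9, 2 members were then lower, beside 10.2% of the probes kept, and 4 higher, beside 10.8%, in controls. After CHD5 shRNA they were 2 lower, beside 14.1%, and 7 higher, beside 11.7%. Cdc20 and Nusap1 joined Ccnb2 and Cdkn1c among those higher in both cultures. From day 9 to day 12, 4 members were lower in controls, beside 3.15%, and 8 after CHD5 shRNA, beside 1.98%, with 2 higher, beside 2.97%. Cdk1, Cdc20 and Mad2l1 were among those lower in both cultures.

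Other genes of the pathway, from lists beside the members, were compared in the same fit. Of 27 further mitosis and chromosome genes with a kept probe, 26 were lower after CHD5 shRNA at day 5, with a median of -0.29 and no call. Of 28 further replication genes 18 were lower (median -0.05), and of 23 genes of G1, the pocket proteins and p53, 8 were lower (median 0.03). With the day 9 control array b left out, 5 of the 27 mitosis genes and 1 of the 28 replication genes were called lower at day 5. The share of all probes kept then was 1.04%. Of all 78, 1 was called lower at day 9, beside 2.25% of all kept probes, and 1 higher, beside 3.65%. At day 12, 2 were lower, beside 3.24%, and 1 higher, beside 2.23%. The fit without that array called 9 lower and 2 higher at day 9, and 5 lower and 4 higher at day 12. Of all probes kept then, 6.67% and 7.07% were called lower at these days, and the day 12 count lower was near its share. In either direction 1172 and 1451 of these 10891 probes were called at days 9 and 12. Anln, the furrow protein anillin, was lower by -0.33 at day 9 and -0.36 at day 12 (limma adjusted p 0.0353 and 0.0217). Rnaseh2a, which removes RNA from DNA, was higher by 0.48 and 0.43 (limma adjusted p 0.0109 and 0.0172). Rb1, which holds back E2F, was lower by -0.44 at day 12 (limma adjusted p 0.0356). Between days 5 and 12 the 78 genes held 11 calls lower and 2 higher in controls and 6 lower and 2 higher after CHD5 shRNA. The calls lower were near the shares of all kept probes given above for the same days, and the calls higher were fewer. Without the array the counts in controls were 26 lower, beside 21.4% of the probes kept then, and 3 higher, beside 17.6%. After CHD5 shRNA they were 14 lower, beside 18.1%, and 3 higher, beside 14.1%. In controls the largest called falls in each list were those of Hmgb2 (-0.54), Orc1l (-0.37) and Gadd45g (-0.67).

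Markers of some other cell types moved with the same groups, and those of others did not. At day 5, 7 of 8 progenitor markers, 9 of 10 astrocyte markers and all 5 fibroblast markers with a kept probe were lower after CHD5 shRNA, and 4 of 7 neuronal markers. None was called with all arrays, and 2 progenitor markers, 1 astrocyte marker and 1 fibroblast marker were called lower without the day 9 control array b. The mean progenitor level was 8.65 to 8.78 on the control arrays and 8.37 to 8.52 on the shRNA arrays, and the astrocyte level 8.58 to 8.61 against 8.30 to 8.33. The fibroblast level was 7.97 to 8.35 against 7.68 to 7.77, and the neuronal level 11.51 to 11.63 against 11.48 to 11.63. Nes differed by -0.49 and Vim by -0.80 (limma adjusted p 0.211 and 0.0655). Vim stands in both the progenitor and the fibroblast list, so these 2 lists are not independent. Of 9 oligodendrocyte lineage markers with a kept probe, 7 were lower at day 5 with no call. All 9 were lower at day 12, with 2 called. Microglia markers were lower at day 5 in 1 of 2 and markers of endothelial cells and pericytes in 1 of 3. Interferon response genes were lower in 3 of 5. The medians of these 3 lists were 0.01, 0.003 and -0.03.

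At day 12 the progenitor level was 8.84 to 8.88 in controls and 8.77 to 8.80 after CHD5 shRNA, with no marker called, and 1 of 8 called lower without that array. The astrocyte level was 11.32 to 11.39 against 10.47 to 10.53, with 7 of 10 markers called lower, and 9 without that array. Of 5 fibroblast markers 3 were lower at day 12, with a median of -0.003 and 2 called lower with all arrays. At day 9, 8 of 10 astrocyte markers were called lower with and without it, at levels of 10.68 to 11.55 in controls and 9.68 to 10.11 after CHD5 shRNA. The mean astrocyte level was 8.60 at day 5 and 11.36 at day 12 in controls, where the mean of the 15 mitotic members was 8.59 and 8.35. Of 8 microglia markers with a probe, 6 were not above background on any array, as were the fibroblast markers Col1a1 and Col3a1. The part of these cell types in the differences of the members was not tested.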

How the data were processed

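Labelled RNA of 18 samples was hybridised to Illumina RatRef-12 arrays with 22523 probes. The deposited intensity of a probe is the mean over its beads, as the authors exported it from GenomeStudio (1.1.1 in the submitters' processing notes), with neither background subtraction nor normalization named in the file header. Each intensity has a deposited detection p-value, its rank against the array's negative control beads. The replicate a sample of each of the 6 groups has a second measurement, which entered only an alternative.

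Probes with a detection p of at most 0.02 on at least 1 array were kept (11079). Their log2 intensities were Z-transformed per array, as in the study's methods, put back on the log2 scale with the arrays' mean SD and mean level. limma 3.58.1 (R 4.3.3) was fitted to the 6 groups of 3 arrays, with Benjamini-Hochberg adjustment over all kept probes within a comparison and a limit of 0.05. No source says that the replicates came from separate dissections, so p-values measure the spread between these samples, which may be technical. The number of arrays limits the precision. The fit was tested on simulated data.

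The members, role lists, pathway lists and markers were chosen with earlier results of these data known. Values on every array are given for members called after CHD5 shRNA, for up to 10 called members with the largest difference between days 5 and 12 in controls (7 were called), and for Mki67, Cdk1, Ccnd1, Cdkn1b, Cdkn1c and Pcna where the results turn on them; values of Ccna2, Ccnb2, Lig1 and Tyms were added after they were seen. At most 3 other pathway genes were named per list. A gene with no detected array in 1 group has a bound, set against the higher of the lowest detected signal and its own signal on each array. Control and CHD5 shRNA arrays of the same letter deviated together at day 5 (correlations of 0.27, 0.17 and 0.38 across probes) but not at every letter of day 9 (-0.20 to 0.43) or day 12 (0.01 to 0.15), and the letter was used as a block only in alternatives. Alternatives were quantile normalization, median centring, neqc, other detection filters, only the arrays compared, the replicate block, both measurements, array weights, the criteria of the study's methods (a Z-ratio beyond 1.5, a false discovery rate under 0.30, a p under 0.05 and a positive background-corrected signal) and leaving out each array. Promoters were searched with Python 3.11.15.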

Additional observations from a re-analysis of the deposited data

Results flagged for a closer look

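The change of the CHD5 shRNA difference of Lig1 from day 5 to day 12 was 0.52 without the day 9 control array b, with a limma adjusted p of 0.0467, and was the 1 member for which the effect of CHD5 shRNA was called as different between these days. With all 18 arrays the change was 0.51 and the limma adjusted p 0.295.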

How the results depend on the processing

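With all arrays 0, 1 and 1 members were called after CHD5 shRNA at days 5, 9 and 12, 7 and 4 between days 5 and 12 in controls and after CHD5 shRNA, and 0 for the change of the difference. In that order of comparisons, quantile normalization gave 4, 3, 2, 13, 6 and 0, and neqc 1, 2, 2, 10, 5 and 0. Quantile normalization called 0.848%, 9.42%, 8.82%, 30.7%, 23.6% and 0.948% of all kept probes in the same order. With neqc 61, 869, 823, 3208, 2375 and 52 of the 11079 kept probes were called. Array weights gave 2, 2, 16, 12, 17 and 1, and only the arrays compared 0, 0, 10, 14, 10 and 0. The share of all kept probes called moved with these counts. At day 12 and between days 5 and 12 in controls and after CHD5 shRNA, it was 32.3%, 26.3% and 45.1% with array weights, and 23.6%, 29.2% and 33.8% with only the arrays compared. No detection filter gave 0, 0, 0, 3, 3 and 0, and detection on all 3 arrays of a group gave 11 between days 5 and 12 in controls. Without the filter 14, 307, 340, 2149, 1306 and 3 of all 22523 probes were called. The stricter filter called 2689 probes between days 5 and 12 in controls. The criteria of the study's methods gave 1, 0, 2, 3 and 2 in the first 5 comparisons. The replicate block gave 0, 1, 1, 10, 5 and 0, and both Ccne2 calls held. With that block 7, 776, 599, 2768, 2020 and 13 of all kept probes were called. Leaving out 1 array at a time gave 0 to 10, 0 to 6, 0 to 6, 4 to 18, 2 to 10 and 0 to 1, and each highest count was that without the day 9 control array b. The lowest counts came without day 9 CHD5 shRNA array a or c, day 12 control array a, day 5 control array a or day 5 CHD5 shRNA array b, and leaving out day 9 control array a or day 5 control array c gave 3 and 2 at day 9. Without day 9 control array b and with the replicate block, a setting chosen after seeing the data, the counts were 12, 9, 6, 18, 10 and 1. Of the 10891 probes kept then, 310, 1953, 1853, 4537, 3711 and 463 were called in the same order. The day 12 count and that for the change of the difference were near the shares of all probes. The cause of these shifts was not tested. No member called with all 18 arrays in these comparisons had the opposite sign in these alternatives. This does not cover members called only without day 9 control array b. Fen1, called lower at day 9 in that fit, gave 9.14, 8.23 (array b) and 9.10 in controls. After CHD5 shRNA it gave 8.78, 8.88 and 8.56, so its sign depended on which control array was left out. The day 9 median over the members was -0.17 without day 9 control array b and -0.15 with array weights, further from 0 than the day 12 medians of -0.13 in both. The day 5 median over the members stayed between -0.32 and -0.21, and 27 to 32 of the members were lower in every alternative. Genes near background, such as Mki67, Racgap1, Plk1, Ccne1, Ccne2 after CHD5 shRNA and Cdkn1c at day 5, can show only part of a difference.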
